A study of Mus musculus with 6 samples.

Results

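The path from the insulin receptor to the glucose transporter GLUT4 was followed through 10 genes in the inguinal fat of mice on a high fat diet. They were taken as every non-control probe of the array whose gene name was Insr, Irs1, Irs2, Pik3r1, Pik3ca, Akt1, Akt2, Slc2a4, Tbc1d4 or Grb14, which gave 10 of 34844 gene names and 17 probes. All 17 probes passed a filter that asked for signal clearly above the local background on 3 or more of the 6 arrays, and 16 of them had it on all 6.

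The samples were 3 titled DIO and 3 titled DIO_CR_WR, each a male C57BL/6J mouse sample measured on 1 Agilent 1-colour array. DIO stands for diet-induced obesity, CR for calorie restriction and WR for weight regain. Per the labels' protocol, the mice entered the study at 2 months of age. One group ate a high fat diet with 60% of energy from fat for 1 month, was then restricted for about 3 weeks until it weighed as much as age-matched mice on regular diet, and then ate the high fat diet freely again. The comparison group ate the high fat diet freely over that last period only, so both groups were on this diet when the fat was taken. The protocol calls the regain group DIO and the comparison group CTR, whereas the titles call the regain group DIO_CR_WR; the titles are followed here, and no label states that the samples titled DIO are the mice called CTR. The labelled ages were 6, 7 and 8 months for DIO and 9, 10 and 11 months for DIO_CR_WR, so age as labelled and group cannot be told apart. The 6 labelled ages step up evenly with the sample listing, as a filled-in column would, and whether they are true ages could not be checked. Nothing in the labels says whether a sample was 1 animal or a pool, and p-values measure only the spread between these samples.

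Insulin binds a receptor tyrosine kinase at the cell surface, which phosphorylates the insulin receptor substrates. These recruit phosphoinositide 3-kinase, a regulatory subunit joined to a catalytic subunit, and the lipid it makes activates the kinase AKT. In fat and skeletal muscle, AKT phosphorylates the RAB GTPase-activating protein TBC1D4, which releases vesicles that carry GLUT4 to the plasma membrane. Much of this regulation acts on proteins and their phosphorylation, which an array of RNA does not measure.

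The sequences of 2 probes and 4 upstream windows are shown because the results turn on Akt2, Tbc1d4 and Pik3r1. The probes are the 60-base sequences that captured Akt2 (A_55_P2066523, mm9 chr7:28418226-28418285, plus strand) and Tbc1d4 (A_52_P381430, mm9 chr14:101878355-101878414, minus strand). Each has 1 of its 3 forward reading frames without a stop codon, which is a description of the letters and not an annotation.
Akt2 probe: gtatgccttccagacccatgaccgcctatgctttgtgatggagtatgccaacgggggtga
Tbc1d4 probe: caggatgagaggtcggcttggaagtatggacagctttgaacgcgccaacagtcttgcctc

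The upstream sequences are the 250 bases before a RefSeq transcript start on GRCm38.p6, read 5′ to 3′ on the gene's strand. RefSeq gives Pik3r1 2 starts, chr13:101768218-101768467 (start A) and chr13:101692631-101692880 (start B), both on the minus strand. Akt2 is shown for the first of its 4 listed starts, chr7:27591302-27591551 on the plus strand, and Tbc1d4 at chr14:101609192-101609441 on the minus strand. A set of 6 motifs was searched on both strands, and capitals mark every match, overlapping ones included. The SP1 motif was spelled GGGCGG, the box for NF-Y was CCAAT, and the E-box was CACGTG. The FOXO motif was GTAAACA, the STAT motif was TTCNNNGAA, and the MEF2 motif was searched as its usual consensus.
Pik3r1 start A: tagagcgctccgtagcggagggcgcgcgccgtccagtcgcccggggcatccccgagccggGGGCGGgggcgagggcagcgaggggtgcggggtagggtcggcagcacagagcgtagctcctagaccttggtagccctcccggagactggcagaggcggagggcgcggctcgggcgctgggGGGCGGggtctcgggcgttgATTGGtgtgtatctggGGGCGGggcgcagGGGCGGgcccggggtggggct
Pik3r1 start B: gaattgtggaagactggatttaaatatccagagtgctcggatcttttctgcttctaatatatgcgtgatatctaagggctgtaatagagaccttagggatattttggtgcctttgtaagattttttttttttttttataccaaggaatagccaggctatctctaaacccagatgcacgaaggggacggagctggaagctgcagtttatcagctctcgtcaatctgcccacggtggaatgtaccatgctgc
Akt2: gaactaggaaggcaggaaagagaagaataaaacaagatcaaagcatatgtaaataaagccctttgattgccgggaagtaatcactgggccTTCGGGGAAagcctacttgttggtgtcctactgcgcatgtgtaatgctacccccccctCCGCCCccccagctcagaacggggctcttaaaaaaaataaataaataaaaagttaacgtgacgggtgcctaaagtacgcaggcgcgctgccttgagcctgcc
Tbc1d4: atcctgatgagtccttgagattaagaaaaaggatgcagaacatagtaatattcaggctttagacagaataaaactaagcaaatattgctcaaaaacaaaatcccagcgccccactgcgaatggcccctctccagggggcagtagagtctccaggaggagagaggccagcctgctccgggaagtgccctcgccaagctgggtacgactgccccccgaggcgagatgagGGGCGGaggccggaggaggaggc

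Pik3r1 start A held 4 SP1 matches and 1 CCAAT box, and start B held no match to any of the 6 motifs. Their GC contents were 76.4% and 42.4%. The printed Akt2 window held 1 SP1 match and 1 STAT match, and the Tbc1d4 window 1 SP1 match. The windows of the other Akt2 starts, not printed, held no match to any of the 6 motifs. Of the 10 members, 8 had at least 1 promoter in the table, 13 promoters in all; Insr and Slc2a4 had none. SP1 was matched in 8 of those 13 windows and in 32.7% of all 32851 promoters in the table. The FOXO motif was matched in 1 of 13 against 3.17%, the E-box in 2 of 13 against 6.02%, the CCAAT box in 2 of 13 against 33.8%, the STAT motif in 1 of 13 against 7.02% and the MEF2 motif in 0 of 13 against 2.92%. A match describes the letters in these windows and is not a bound site.

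The 6 arrays differed in ways that touch these genes. The 75th percentile of the signal, to which every level here is scaled, was 4605 to 4991 intensity units in DIO and 6050 to 7126 in DIO_CR_WR, and 69.1% to 79.7% of probes in DIO against 52.9% to 66.7% in DIO_CR_WR were well above background. Slide 1 held DIO replicate 1 and all 3 DIO_CR_WR arrays, and slide 2 held DIO replicates 2 and 3. The median log2 fold change of all 38460 probes tested was -0.19, so DIO_CR_WR is the lower group for a typical probe under this scaling. Scaling to the spike-in probes, RNA added in a fixed amount to each labelling, moved that median to 0.33. Levels are given as log2 of the intensity over the array's 75th percentile, and differences are DIO_CR_WR minus DIO on that scale, from limma.

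No probe of the array passed an adjusted p of 0.05 (0% of 38460; the smallest adjusted p was 0.119), so none of the differences in the members is a call at that threshold. At an unadjusted p under 0.05, limma counted 1 member probe higher, that of Pik3r1, and 4 lower, of Akt2 (2 probes), Slc2a4 and Tbc1d4. The same rule counted 5.34% of all probes higher and 20.8% lower. By the brightest probe of each gene, 1 of 10 members was higher (5.31% of all genes) and 1 lower (21% of all genes). The 3 DIO_CR_WR arrays lay wholly above the 3 DIO arrays for 1 member probe (7.29% of all probes) and wholly below for 6 (25.6%). The shares of members that were lower are thus near what the whole array showed. The median log2 fold change of the 10 members by brightest probe was -0.08.

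**Figure D1:**
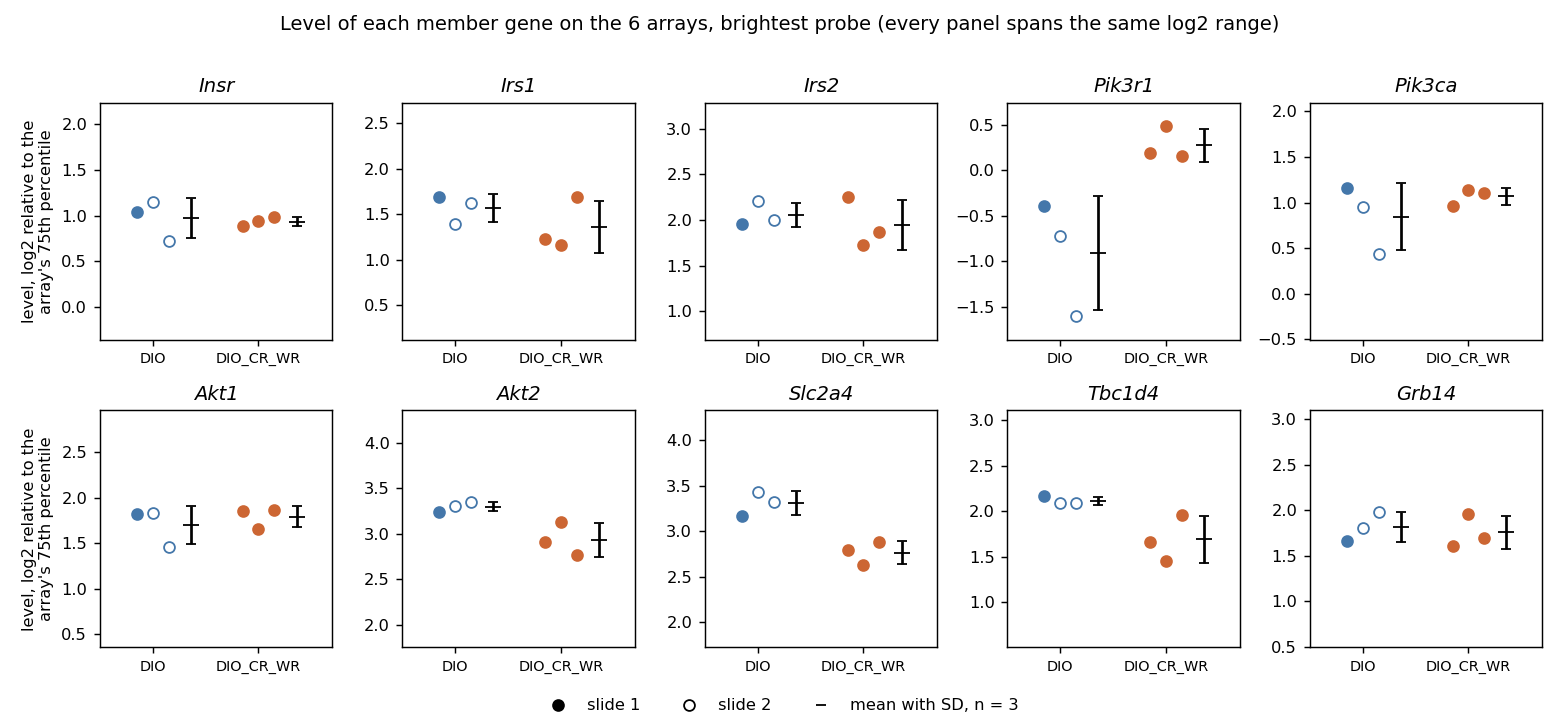
Level of the brightest probe of each member on each array, as log2 of intensity over the array's 75th percentile, with filled points for slide 1, open points for slide 2 and a bar for the mean and SD of 3 arrays. The groups did not overlap for Pik3r1, higher in DIO_CR_WR, or for Akt2, Slc2a4 and Tbc1d4, lower in DIO_CR_WR.

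Insr, the receptor itself, was read by 3 probes on mm9 chromosome 8. The brightest, A_55_P2172566, stood at 1.04, 1.15 and 0.73 in DIO and at 0.88, 0.94 and 0.99 in DIO_CR_WR. The DIO_CR_WR arrays lay inside the range of the DIO arrays. The difference was -0.04 ± 0.17 (SE, n = 3 a group) with a 95% interval from -0.45 to 0.38 (limma adjusted p = 0.907). The second probe differed by 0.22 (0.11 to 1.17 in DIO and 0.62 to 1.03 in DIO_CR_WR), and the third, the dimmest and above background on 5 of 6 arrays, by -0.05. The 3 Insr probes therefore did not share a direction, and each one's DIO_CR_WR values fell within its DIO range. The intervals leave room for a difference of about the size seen for Slc2a4.

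Irs1 and Irs2 encode the docking proteins that the receptor phosphorylates. The brightest Irs1 probe read 1.69, 1.40 and 1.62 in DIO against 1.22, 1.16 and 1.68 in DIO_CR_WR. Its difference was -0.21 ± 0.20 (limma adjusted p = 0.52), and DIO_CR_WR replicate 3 stood with the DIO arrays. The other Irs1 probe differed the opposite way, by 0.35 ± 0.30. Irs2 read 1.96, 2.21 and 2.00 in DIO against 2.25, 1.72 and 1.87 in DIO_CR_WR, with a difference of -0.11 ± 0.20 and a 95% interval from -0.58 to 0.36. The DIO_CR_WR arrays held both the highest and the lowest Irs2 value.

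Pik3r1, the regulatory subunit p85α of phosphoinositide 3-kinase, had the largest difference among the 17 probes and was the member probe with the whole DIO_CR_WR group on the high side. Its probe, A_51_P511236 (mm9 chr13:102454406-102454465, minus strand), read -0.39, -0.73 and -1.60 in DIO and 0.19, 0.49 and 0.15 in DIO_CR_WR. Every DIO_CR_WR array was above every DIO array, and DIO replicate 3 was the lowest by far. The difference was 1.18 ± 0.33, a 2.27-fold higher level in DIO_CR_WR (95% interval 0.40 to 1.97; limma adjusted p = 0.135). In processed intensity, before any scaling, the same probe gave 3820, 2857 and 1515 units in DIO and 8123, 9608 and 6729 in DIO_CR_WR. It was higher in DIO_CR_WR under each scaling tried, with 1.27 by median centring, 1.21 by quantile normalization and 1.70 by spike-in scaling. With slide as a block, which sets DIO replicate 1 alone against the DIO_CR_WR arrays of its slide, the difference was 0.66 (limma adjusted p = 0.578). Without DIO replicate 3 it was 0.83, and without DIO replicate 1 it was 1.44 with a limma adjusted p of 0.0416. In the fit without DIO replicate 1, slide and group cannot be told apart, and 5370 of 38460 probes passed the adjusted threshold. With the labelled age as a covariate the Pik3r1 difference was 2.12 (limma adjusted p = 0.141). Whether this probe reads the transcripts of both printed starts was not tested.

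Pik3ca, the catalytic subunit p110α that p85α holds, read 1.16, 0.95 and 0.43 in DIO and 0.96, 1.14 and 1.10 in DIO_CR_WR. The groups overlapped, and the difference of 0.22 ± 0.22 became -0.09 with slide as a block. The lowest Pik3ca value, like the lowest Pik3r1 value, was that of DIO replicate 3.

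Akt1 and Akt2 are the 2 AKT kinases measured here; Akt2 is the form most tied to glucose uptake in fat and muscle. Akt1 read 1.82, 1.83 and 1.46 in DIO and 1.85, 1.66 and 1.86 in DIO_CR_WR, with a difference of 0.09 ± 0.18 and a 95% interval from -0.33 to 0.51. Akt2 had 4 probes, all lower in DIO_CR_WR by their means. The Akt2 probe printed above read 2.33, 2.70 and 2.66 in DIO and 1.60, 1.88 and 1.67 in DIO_CR_WR. After scaling the groups were well apart, by -0.84 ± 0.18, a 1.79-fold lower level in DIO_CR_WR (95% interval -1.27 to -0.42, limma adjusted p = 0.123). Before scaling, this probe gave 25040, 30670 and 29080 units in DIO and 21580, 25230 and 19300 in DIO_CR_WR, and the groups overlapped. Of the member probes it had the smallest adjusted p, and with slide as a block the difference was -0.61 (limma adjusted p = 0.479). Without DIO replicate 1 it was -0.96, with a limma adjusted p of 0.0308. Slide and group cannot be told apart in that fit, in which 5370 of 38460 probes passed the adjusted threshold.

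The brightest Akt2 probe, A_55_P2066518, read 3.24, 3.30 and 3.34 in DIO against 2.91, 3.13 and 2.76 in DIO_CR_WR, a difference of -0.36 ± 0.16 (limma adjusted p = 0.213). A_55_P2025228 shares 53 of its 60 bases of genome position with that probe, so both read nearly the same stretch, and it differed by -0.53 ± 0.19 (limma adjusted p = 0.155). The dimmest probe, A_66_P135179, which the array's design assigns to another transcript record of the gene, overlapped between groups, with -1.93, -1.93 and -1.57 in DIO against -2.04, -1.84 and -2.13 in DIO_CR_WR. Across the Akt2 probes the difference thus ranged from -0.84 to -0.19, and the difference between probes was not tested. Under spike-in scaling, the probes in the order described differed by -0.33, 0.15, -0.02 and 0.32. The direction of the brightest and the dimmest probe thus rests on the scaling. The printed probe stayed lower, and A_55_P2025228 was next to unchanged.

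A difference taken within an array is free of any scaling that shifts a whole array by 1 constant, such as a percentile, the median or the spike-ins, but not of quantile normalization. Akt2 minus Akt1, by brightest probes, was 1.43, 1.48 and 1.89 in DIO and 1.05, 1.47 and 0.90 in DIO_CR_WR. The mean change of -0.45 had an exact two-sided permutation p of 0.2 (adjusted over 3 pairs 0.3), where 3 against 3 arrays cannot go below 0.1. Under quantile normalization, added after the data were seen, it was -0.27. Irs2 minus Irs1 changed by 0.11 (exact p = 0.7, adjusted 0.7), and took the opposite sign with the second Irs1 probe. Such a contrast shows unequal change within a pair and not which gene changed.

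**Figure D2:**
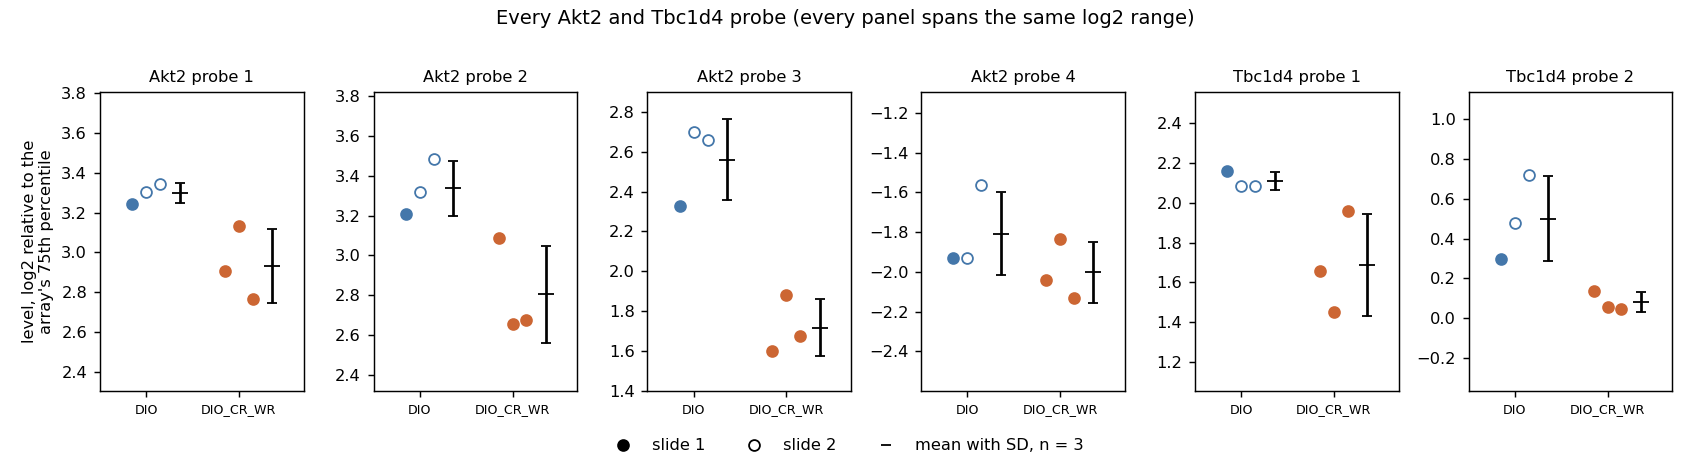
Level of each of the 4 Akt2 and 2 Tbc1d4 probes on each array, as log2 of intensity over the array's 75th percentile, numbered from the brightest probe, with the mean and SD of 3 arrays. Akt2 probe 3, the printed sequence, shows the widest gap between groups (-0.84), and Akt2 probe 4 is the panel whose groups overlap.

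Tbc1d4, also called AS160, holds GLUT4 vesicles back until AKT phosphorylates it. Both its probes were lower in every DIO_CR_WR array than in every DIO array. The brighter, A_55_P2024953, read 2.16, 2.09 and 2.08 in DIO against 1.66, 1.45 and 1.96 in DIO_CR_WR, a difference of -0.42 ± 0.18 (limma adjusted p = 0.201). The printed probe, at a distant position of the gene, read 0.30, 0.48 and 0.72 in DIO against 0.14, 0.06 and 0.05 in DIO_CR_WR, a difference of -0.42 ± 0.17 (limma adjusted p = 0.186). With slide as a block the brighter differed by -0.47 and the printed one by -0.22. Spike-in scaling turned both to 0.10.

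Slc2a4 encodes GLUT4, the insulin-responsive glucose transporter of fat and muscle. Its 1 probe, A_51_P217498 (mm9 chr11:69756073-69756132, minus strand), was spotted 10 times on each array, of which 6 to 10 spots an array were used after outlier spots were left out. The levels were 3.17, 3.43 and 3.33 in DIO and 2.79, 2.63 and 2.88 in DIO_CR_WR. The groups did not overlap, and the SD among spots of 1 array was 0.02 to 0.12. The difference was -0.54 ± 0.16, a 1.46-fold lower level in DIO_CR_WR (95% interval -0.93 to -0.15; limma adjusted p = 0.138).

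The size of this difference moved with the scaling. Before scaling, the Slc2a4 intensity was 44880, 50800 and 46150 units in DIO and 49240, 42350 and 44600 in DIO_CR_WR, so the unscaled groups overlapped. The difference was -0.24 by quantile normalization, -0.45 by median centring and -0.02 by spike-in scaling (limma adjusted p = 0.95). With slide as a block it was -0.40 (limma adjusted p = 0.539). It was lower in DIO_CR_WR in each of these, though next to nothing under the spike-in scaling. Slc2a4 minus Slc2a1, the GLUT1 transporter that works without insulin, changed by -0.37 within arrays (exact two-sided permutation p = 0.2, adjusted 0.3), and by -0.09 under quantile normalization.

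Grb14, an adaptor that binds the active receptor and inhibits its kinase, read 1.66, 1.80 and 1.98 in DIO and 1.61, 1.96 and 1.70 in DIO_CR_WR. The groups overlapped almost fully, with a difference of -0.06 ± 0.18 and a 95% interval from -0.49 to 0.37.

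**Figure D3:**
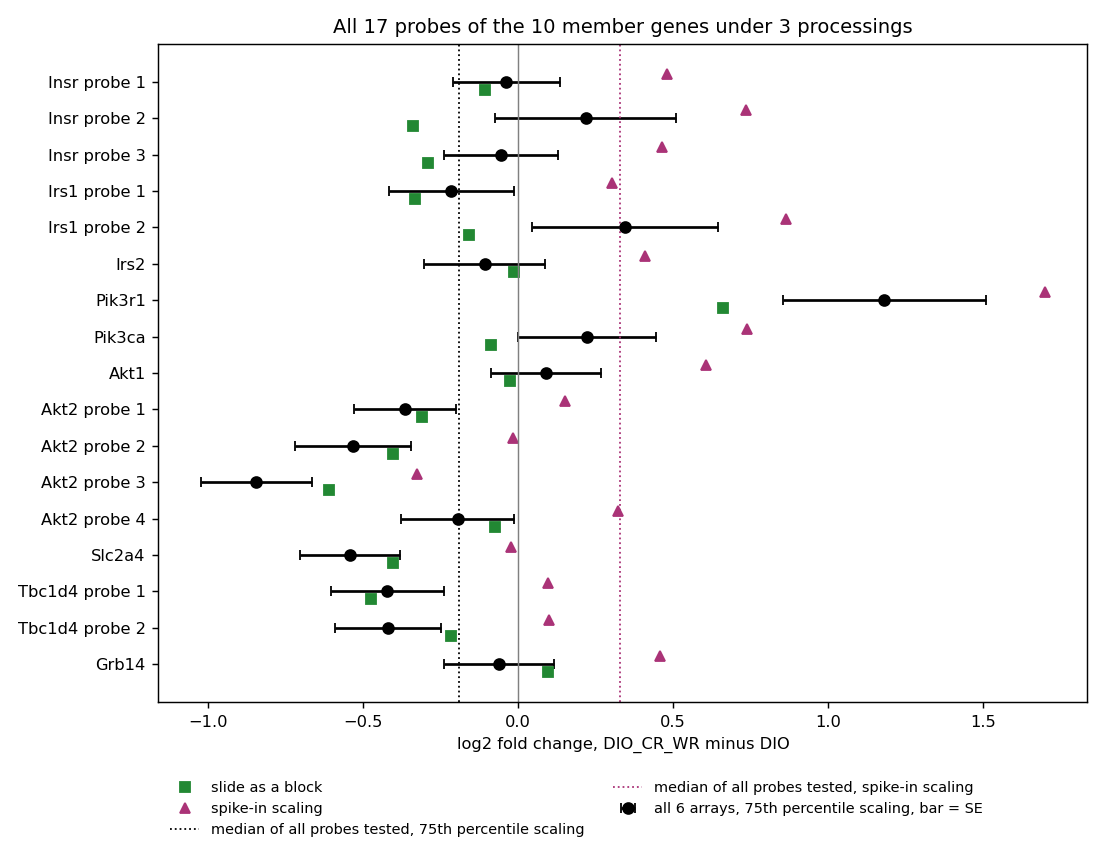
Log2 fold change, DIO_CR_WR minus DIO, of the 17 member probes, with black points and SE bars for the 75th percentile scaling, squares for slide as a block and triangles for spike-in scaling; dotted lines mark the median of all probes under the 2 scalings (-0.19 and 0.33). Pik3r1 stays to the right of 0 in all 3, and the Slc2a4 triangle sits at -0.02.

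Skeletal muscle also expresses Slc2a4, Akt2 and Tbc1d4 strongly, and in bulk tissue fewer cells of a type and less RNA per cell cannot be told apart. All 14 skeletal muscle markers were above background, and their summed level was 255 to 304 times the 75th percentile in DIO and 165 to 192 times in DIO_CR_WR. Below an unadjusted p of 0.05 stood 7 of the 14, all lower (median -0.63, and -0.68 with slide as a block). The same rule counted 21% of all genes lower and 5.31% higher, with a median of -0.20. Ckm, muscle creatine kinase, differed by -0.54 ± 0.16 and Acta1, skeletal actin, by -0.53 ± 0.39. Under spike-in scaling they differed by -0.02 and -0.01. The 6 brown and beige adipocyte markers were as low (median -0.65, 0 higher and 2 lower, summed level 24.9 to 36.6 in DIO and 16.1 to 25.9 in DIO_CR_WR). The 2 lower genes were Ppargc1a (-0.96) and Cox8b (-0.58), named after their values were seen. Both lists shared the direction of Slc2a4, Akt2 and Tbc1d4, and their part in those differences was not tested.

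Of the 10 adipocyte markers, which define the labelled tissue and were all well above background, 0 were higher and 4 lower. Of all genes 5.31% were higher and 21% lower. The adipocyte median was -0.38, and -0.13 with slide as a block, with summed levels of 177 to 222 in DIO and 148 to 199 in DIO_CR_WR. The 4 lower markers were Cfd (-0.83), Dgat2 (-0.74), Lipe (-0.54) and Retn (-0.42), named after their values were seen. Adipoq, which encodes adiponectin, differed by 0.16 ± 0.32, Plin1, the coat protein of the lipid droplet, by -0.34 ± 0.23, and Lep, which encodes leptin, by -0.01 ± 0.15. T cell markers shared the direction of Pik3r1 between the groups but not its order within DIO. Of 8, 5 were higher and 0 lower, against 5.31% and 21% of all genes (median 1.24, and 1.85 with slide as a block). Summed T cell marker levels were 1.08 to 2.45 in DIO and 2.49 to 3.43 in DIO_CR_WR. Cd3e, part of the CD3 complex, differed by 0.84 ± 0.47. Of 9 macrophage and monocyte markers, 2 were higher and 0 lower (median 0.086, and 0.385 with slide as a block), and Emr1 (F4/80) differed by 0.42 ± 0.26. Among the DIO arrays, replicate 3 had the highest T cell list mean (0.24, against -1.03 and -0.77 in replicates 1 and 2) and the lowest Pik3r1 level. The part of immune cells in the Pik3r1 difference was not tested.

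**Figure D4:**
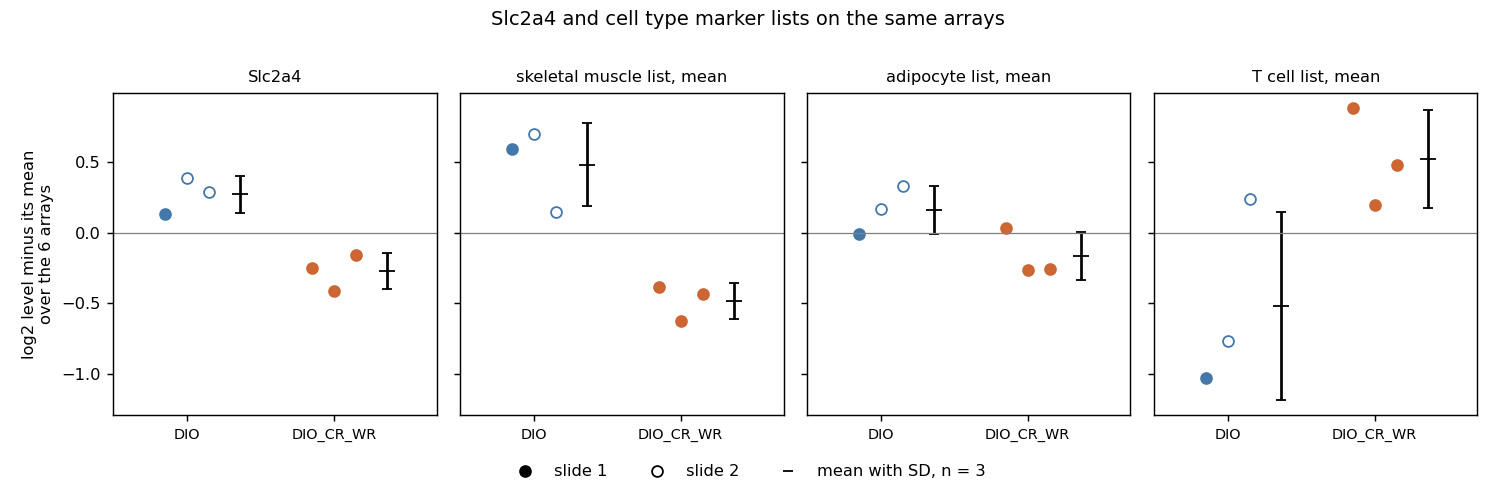
Slc2a4 level and the mean level of the skeletal muscle, adipocyte and T cell marker lists on each array, all as log2 minus the mean over the 6 arrays, with filled points for slide 1 and open points for slide 2. The muscle list (0.15 to 0.70 in DIO, -0.63 to -0.39 in DIO_CR_WR) separates the groups as Slc2a4 does, and the adipocyte and T cell lists overlap.

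The genes around these members were read from 8 lists of 119 gene names, of which 107 were on the array and passed the filter. By brightest probe, 6 were on the higher and 20 on the lower side with an unadjusted p below 0.05, their median log2 fold change was -0.16, and none passed an adjusted p of 0.05. All genes had 5.31% higher and 21% lower, with a median of -0.20. The lists were chosen with earlier results of these data known, and their counts are descriptions.

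Among 14 receptor and adaptor genes, 1 was higher and 4 lower. Rapgef1, which encodes an exchange factor for small GTPases, went from a mean of 2.36 in DIO to 1.80 in DIO_CR_WR (-0.56 ± 0.15, limma adjusted p = 0.131). Trip10, which encodes CIP4, an effector of the small GTPase TC10, went from 1.43 to 0.66 (-0.77 ± 0.20). Both act in the branch that was proposed to lead to GLUT4 beside phosphoinositide 3-kinase. The 10 genes listed as brakes on insulin signalling, labelled receptor brakes, were the list with the highest median (0.19), with 2 higher and 0 lower. Enpp1, a membrane protein that inhibits the receptor, read -3.10, -2.80 and -2.68 in DIO and -2.08, -2.26 and -2.09 in DIO_CR_WR (0.72 ± 0.18, limma adjusted p = 0.129). Its groups were apart, and with slide as a block the difference was 0.96. Ptprf, the receptor-type phosphatase LAR, differed by 0.53 ± 0.20, and by 0.20 with slide as a block.

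Of 11 genes for phosphoinositide 3-kinase, lipid phosphatases and PDK1, 2 were higher and 0 lower. Inpp5d, the lipid phosphatase SHIP1, best known from blood cells, had the largest difference of any listed gene. It read -0.41, -1.71 and -1.51 in DIO and 0.39, 0.39 and 0.34 in DIO_CR_WR (1.58 ± 0.35, limma adjusted p = 0.125). The DIO_CR_WR arrays were close together and above every DIO array, and with slide as a block the difference was 0.78. It moved in the same direction as the T cell and macrophage markers above, whose part in it was not tested. Pik3c2a, a class II phosphoinositide 3-kinase, differed by 0.67 ± 0.24, and 1 of its 2 probes went the opposite way.

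Downstream, 15 genes for AKT, its phosphatases and mTOR counted 0 higher and 3 lower. Mapkap1, the SIN1 subunit of mTOR complex 2, differed by -0.63 ± 0.19 (-0.34 with slide as a block), with 1 of its 2 probes in the opposite direction, and Akt1s1, the AKT substrate PRAS40, by -0.51 ± 0.17. Of 13 AKT targets, 1 was higher and 4 lower. Foxo4, a forkhead factor that AKT keeps out of the nucleus, read -2.77, -1.26 and -1.54 in DIO and -3.31, -3.22 and -3.07 in DIO_CR_WR (-1.34 ± 0.39). DIO replicate 1 stood near the DIO_CR_WR arrays, the difference with slide as a block was -0.43, and 1 of the 3 Foxo4 probes went the opposite way. Gys1, the glycogen synthase of muscle and fat, differed by -0.67 ± 0.23.

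The 18 genes of GLUT4 vesicles and their fusion counted 0 higher and 2 lower. Exoc7, an exocyst subunit, differed by -0.58 ± 0.19, and Ralgapa2, part of the complex that inactivates the GTPase RALA, by -0.74 ± 0.30, with 1 of its 3 probes in the opposite direction. With slide as a block these were -0.31 and -0.36. Of 8 other glucose transporters, 0 were higher and 1 lower, Slc2a12 (GLUT12), at -0.46 ± 0.19 (-0.28 with slide as a block). Slc2a13, a myo-inositol transporter, differed by 0.79 ± 0.36 (limma adjusted p = 0.218), with overlapping groups, and by 0.15 with slide as a block. The 18 genes of insulin-responsive transcription counted 0 higher and 6 lower and had the lowest median of the 8 lists (-0.39). Hk2, the hexokinase that traps glucose inside the cell, read 2.60, 2.71 and 2.60 in DIO and 2.17, 1.87 and 1.93 in DIO_CR_WR (-0.65 ± 0.16, limma adjusted p = 0.128; -0.61 with slide as a block). Mef2d, a transcription factor of a family that acts on the Slc2a4 promoter, differed by -0.77 ± 0.19, with all 3 of its probes lower (-0.46 with slide as a block). Hk2, Mef2d and Gys1 are also expressed in skeletal muscle, whose markers moved with them. Under spike-in scaling these 3 differed by -0.13, -0.25 and -0.16. The counts over all 8 lists became 26 of 107 genes higher and 1 lower. Of all 38460 probes, 8278 were higher and 1014 lower under that scaling.

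**Figure D5:**
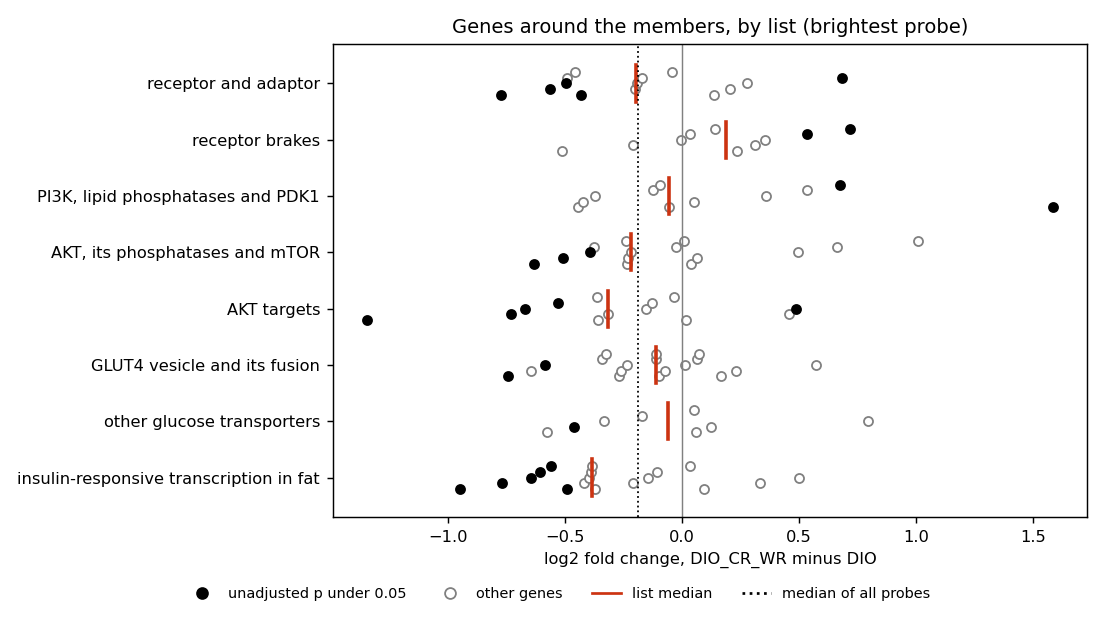
Log2 fold change, DIO_CR_WR minus DIO, of each gene of the 8 lists by its brightest probe; filled points have an unadjusted p under 0.05, red bars are list medians and the dotted line is the median of all probes (-0.19). The list labelled receptor brakes has the highest median (0.19), and the transcription list the lowest (-0.39).

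Slc2a4 and Insr were set against all genes well above background on every array to find the most similar profiles. The measure was the root mean square difference of log2 levels, each centred on its mean over the 6 arrays, over 15218 genes. For Slc2a4 the nearest were Bsg (0.0327), Arfgap2 (0.0365) and Atp5d (0.0391). Bsg, for example, read 3.42, 3.62 and 3.51 in DIO and 2.94, 2.85 and 3.08 in DIO_CR_WR. For Insr they were Uba3 (0.0299), Fbxo3 (0.0318) and Vtn (0.0333). These profiles share the 6 arrays and their scaling, so likeness describes the arrays and carries no test.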

How the data were processed

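RNA from 6 inguinal fat samples was hybridised to Agilent 1-colour arrays of design 028005. The deposited intensity of each spot was made by the authors' Feature Extraction software, which subtracted a local background and corrected a trend within each array but did not normalize between arrays, per the file headers, which name version 10.7.3.1, whereas 10.7.1.1 stands in the submitters' processing notes. Deposited flags mark spots above background, saturated spots and outliers. The 18 columns of a series table were set aside, since their names and the titles differ. Probe positions are those of the files (mm9), which give no exon annotation.

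Control and outlier spots were left out, spots of a probe were averaged, and log2 intensity minus each array's 75th percentile over non-control probes was tested with limma 3.58.1 in R 4.3.3 (lmFit, eBayes, Benjamini-Hochberg over 38460 probes). Probes well above background on at least 3 arrays were kept, and 334 with a missing value were left out. No member spot was saturated. With 3 arrays a group, the number of arrays limits the precision. Genes are read by their brightest probe. Named were all members, the 2 genes of each list with the smallest unadjusted p, 7 cell type markers and the 3 genes most like Slc2a4 and Insr. The members, lists and tests were chosen with earlier results of these data known. The test was checked on simulated data with independent noise for each probe. These data held no slide effect and no difference in scaling between arrays, so the check does not cover either. Alternatives were normexp background correction with an offset of 50 and quantile normalization, quantile normalization, median centring, spike-in scaling (8 of 10 E1A probes), other filters, other probe summaries, variance model, replicate and slide blocks, age, and leaving out each array. Promoters are from RefSeq (GRCm38.p6).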

Additional observations from a re-analysis of the deposited data

How the results depend on the processing

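With 3 arrays a group, 1 array can decide a count, and the arrays' signal over background differed between groups. Of the member fold changes recomputed under alternatives, 281 kept their direction and their side of the adjusted threshold, 2 passed it and 42 reversed. The 281 overstate stability. Other filters, 1 probe per gene, the variance model and the replicate block leave a fold change as it is, so none could reverse there. Slide as a block and slide 1 alone gave the same fold changes, and both are counted. The 2 were Pik3r1 and the printed Akt2 probe, both without DIO replicate 1. The cause of the reversals was not tested. Pik3r1, Slc2a4 and the printed Akt2 probe reversed under none of the alternatives run.

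Probes past an adjusted p of 0.05 numbered 6 under spike-in scaling and 46 with signal required on all 6 arrays (27366 probes tested). They numbered 0 to 5370 when 1 array was left out, the highest without DIO replicate 1. Without that array, all DIO arrays were on slide 2 and all DIO_CR_WR arrays on slide 1. Of member genes at an unadjusted p under 0.05, spike-in scaling counted 2 higher and 0 lower, beside 8278 and 1014 of 38460 probes. The lower count was 0 under quantile normalization, normexp with quantile normalization and age as a covariate, whose counts over all probes are given below. It was 3 with signal on all 6 arrays (5316 of 27366 probes lower) and with the mean of a gene's probes (5489 of 26180 genes lower). It was also 3 with a trended and robust variance (7905 of 38460 probes lower). When 1 array was left out it was 0 to 2, beside 3359 to 10541 of 38460 probes. With slide as a block it was 0 higher and 0 lower, beside 1707 and 2165 of 38460 probes.

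Pathway genes were 26 higher and 1 lower under spike-in scaling, 11 and 12 under normexp with quantile normalization, 3 higher with no filter and 2 higher with slide as a random block. Lower ones numbered 11 under quantile normalization, 13 under median centring, 4 with slide as a block and 11 with age as a covariate. Leaving out 1 array gave 2 to 13 higher and 8 to 24 lower. Beside these stood 1155 to 3373 higher and 3359 to 10541 lower of all 38460 probes. Over all 38460 probes, the main fit counted 2055 higher and 7986 lower, spike-in scaling 8278 and 1014, and slide as a block 1707 and 2165. Quantile normalization counted 2684 and 5179, normexp with it 3002 and 5727, median centring 2435 and 6175, and age as a covariate 1811 and 7327. Slide as a random block counted 1618 and 5028, and no filter 7753 and 6332 of 55170 probes.

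The titles share replicate numbers, and a replicate block counted 2 pathway genes higher and 13 lower, with 0 probes past the adjusted threshold. Over all 38460 probes that fit counted 1811 higher and 6996 lower. Same-numbered arrays did not deviate together (correlations of -0.01, -0.12 and -0.24), so the numbers are not taken as pairs.

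Reversed values under spike-in scaling were 0.46 for Grb14, 0.48 and 0.46 for the first and the third Insr probes, 0.30 for the first Irs1 probe, 0.41 for Irs2, 0.15 and 0.32 for the brightest and dimmest Akt2 probes and 0.096 and 0.099 for the Tbc1d4 probes. Quantile normalization gave 0.096 for Grb14, 0.026 and 0.087 for those Insr probes and 0.067 for Irs2. Normexp with quantile normalization gave 0.30 for Grb14, 0.098 for the third Insr probe, 0.018 for the brightest Akt2 probe and 0.043 for Irs2. Median centring gave 0.032 for Grb14 and 0.055 and 0.037 for the 2 Insr probes. The mean of a gene's probes gave 0.066 for Irs1 and 0.042 for Insr. With slide as a block and on slide 1 alone, Grb14 was at 0.096, Akt1 at -0.026, the second Insr probe at -0.34, the second Irs1 probe at -0.16 and Pik3ca at -0.087. Age as a covariate gave 0.12 and 0.10 for the first and the third Insr probes and 0.15 for Irs2. Leaving out 1 array gave ranges of -0.16 to 0.052, -0.031 to 0.50 and -0.20 to 0.063 for the 3 Insr probes, -0.16 to 0.024 for Grb14, -0.032 to 0.16 for Akt1 and -0.26 to 0.0034 for Irs2. Irs2 minus Irs1 was -0.45 with the second Irs1 probe. The within-array differences kept their direction under both quantile normalizations, which were added after the data were seen.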
